A study of Mus musculus with 12 samples.

Results

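Lynx1 and 8 further genes of cholinergic transmission were followed in mRNA from mouse ventral hippocampus. The 9 genes were chosen by name and form 9 of the 13951 genes in the table, and all 9 passed the filter on low values, which kept 13858 genes. Lynx1 was picked because its values were lower in mice with Angelman syndrome (AS), so its AS against wild-type (WT) values are given as a description without a test. The other members are Ly6h, the nicotinic receptor subunit genes Chrna4, Chrna7 and Chrnb2, the muscarinic receptor genes Chrm1, Chrm2 and Chrm3, and the acetylcholinesterase gene Ache.

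Polyadenylated RNA was sequenced from 12 C57BL/6J mice aged 12 to 16 weeks, 1 library per mouse, and came from the ventral portion of the hippocampus on the right side. The groups were AS females, WT females, AS males and WT males, with 3 mice in each. The labels call the AS mice diseased and the WT mice controls, and they do not state which allele the AS mice carried or from which parent. No treatment is named for any group.

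Acetylcholine reaches the hippocampus mainly through axons of the medial septum and diagonal band, and acts there on nicotinic receptors, which are ion channels built from several subunits, and on muscarinic receptors, which signal through G proteins. Lynx1 and Ly6h belong to the Ly6/uPAR family of small, lipid-anchored proteins that resemble snake toxins; Lynx1 binds nicotinic receptors and dampens their response, and Ly6h lowers the signal of receptors that contain the alpha7 subunit. Acetylcholinesterase ends the signal by splitting acetylcholine. Angelman syndrome, a disorder of brain development, follows loss of the ubiquitin ligase UBE3A, which neurons make from the maternal allele.

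Levels are given as log2(abundance + 1), where abundance is the per-length value back-transformed from the deposited logs, and sequencing depth is unknown. Ube3a itself lay between 3.78 and 4.31 in the 6 AS libraries and between 3.99 and 4.34 in the 6 WT libraries, so it did not separate the labelled genotypes (AS minus WT -0.09 ± 0.09 SE over both sexes, limma adjusted p = 0.976). The library labelled WT female replicate 1 had Xist, the RNA of the inactive X chromosome, at 0.35, against 6.00 to 6.44 in the other 5 female libraries and 0.17 to 0.52 in male libraries, while its Y-linked genes were at the female level. In AS female replicate 2, WT female replicates 1 and 2 and AS male replicate 2, choroid plexus genes were far above the other 8 libraries. Neuronal identity was plain in all libraries: the 7 pan-neuronal markers summed to an abundance of 2450 to 2640 in AS and 2460 to 2810 in WT, and Slc17a7, the vesicular glutamate transporter of hippocampal pyramidal cells, lay between 8.47 and 8.84 in AS and between 8.39 and 8.78 in WT. None of the 8 marker genes listed for cholinergic neurons, among them the choline acetyltransferase gene Chat, was analysed here.

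Lynx1 was the member whose values followed genotype. It was 6.50, 6.40 and 6.59 in AS females, against 6.76, 6.86 and 6.68 in WT females. It was 6.44, 6.22 and 6.61 in AS males, against 6.93, 7.01 and 6.97 in WT males. Every AS library was thus below every WT library, and 18 of the 13858 genes tested (0.130%) had all 6 AS libraries below all 6 WT libraries, with 4.02% of genes lower in this way in females and 5.18% in males; since Lynx1 was chosen for this pattern, nothing is read from that share. Group means were 6.50 ± 0.09 in AS females and 6.77 ± 0.09 in WT females, and 6.43 ± 0.19 in AS males and 6.97 ± 0.04 in WT males (SD, n = 3 each).

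The AS minus WT difference of Lynx1 was -0.27 ± 0.09 on the log2 scale in females and -0.54 ± 0.09 in males (SE, limma), and -0.41 ± 0.06 over both sexes. As abundance, AS females averaged 89.3 ± 5.72 and WT females 108 ± 6.56, and AS males averaged 85.5 ± 11.5 and WT males 124 ± 3.59 (SD, n = 3 each). The male difference less the female difference was -0.27 ± 0.13 (SE), again a description. The 2 AS groups lay close together, and the WT males were above the WT females. In bulk tissue, fewer Lynx1-expressing cells and less Lynx1 RNA per cell cannot be told apart.

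Sex could be tested for Lynx1, because the choice did not use it. Over both genotypes the male minus female difference was 0.07 ± 0.06 (95% interval -0.07 to 0.21), which did not pass the test (limma adjusted p = 0.875). In that contrast 5 of 13858 genes passed (0.0361%), and 958 (6.91%) had an unadjusted p below 0.05.

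The size of the Lynx1 difference depended on which libraries were kept. Without the 4 libraries high in choroid plexus genes it was -0.14 ± 0.09 in females, where 1 WT library then remains, and -0.44 ± 0.07 in males. Without WT female replicate 1 the female difference was -0.28 ± 0.11. Without WT male replicate 2, which had the highest Lynx1 value of the 12 libraries, the male difference was -0.524 ± 0.105. AS male replicate 2 and AS female replicate 2, both among the 4, had the lowest Lynx1 value of their groups. WT female replicate 2, with the highest choroid plexus level of all, had the highest Lynx1 value of its group.

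**Figure D1:**
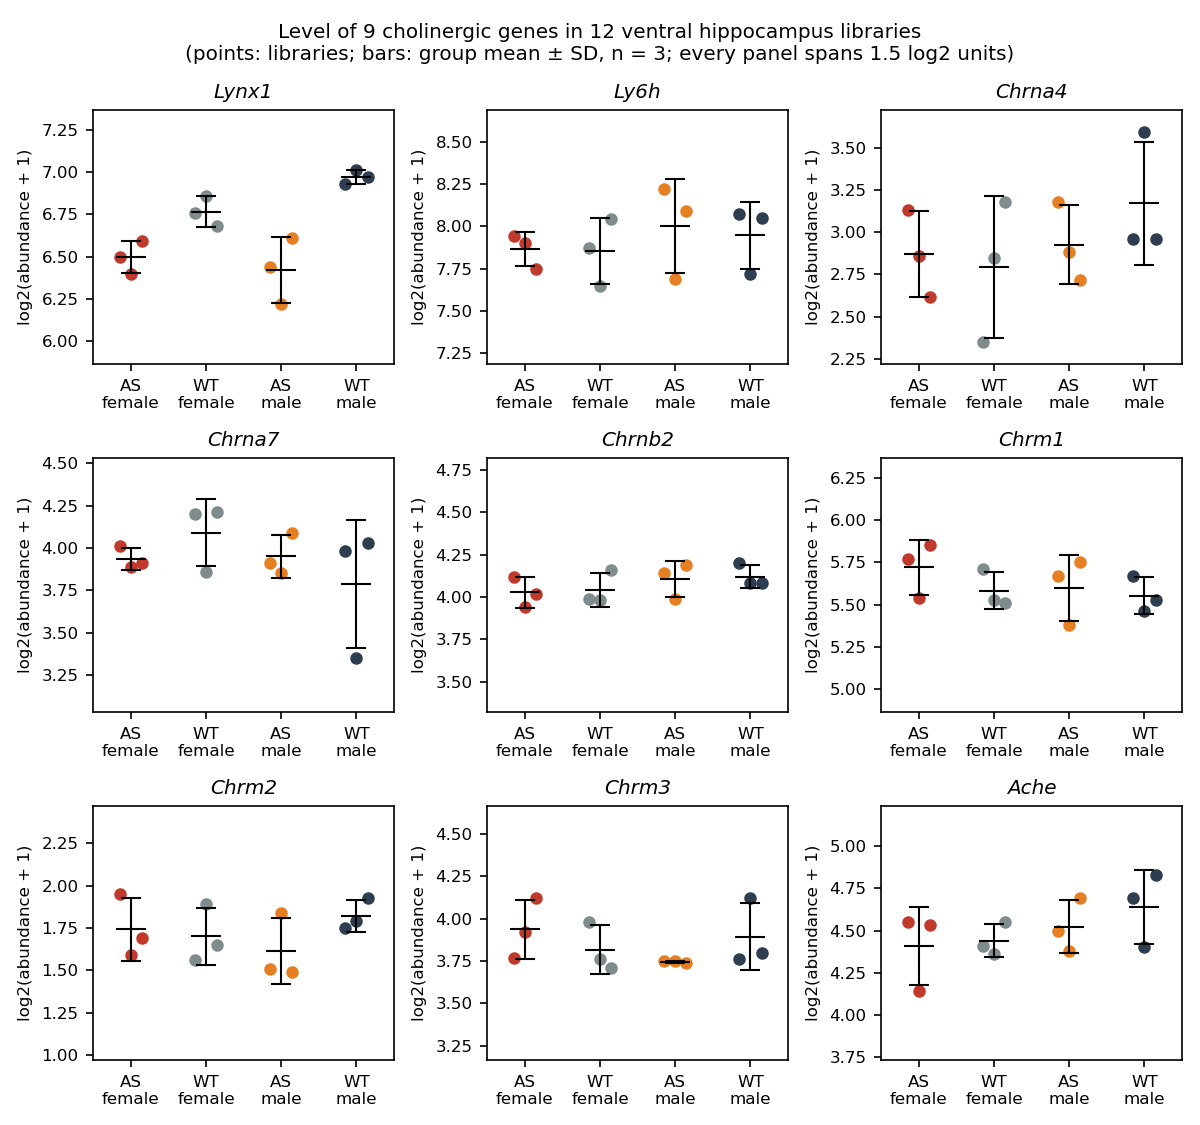
Level of the 9 genes as log2(abundance + 1) (y axis) in the 3 libraries of each group (x axis); points are libraries, and bars are the group mean ± SD. The 6 AS libraries of Lynx1 sit between 6.22 and 6.61, below the 6 WT libraries at 6.68 to 7.01, while the AS and WT libraries of the other genes interleave over the 4 groups together.

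Some cell type marker lists were lower in AS males than in WT males without overlap, and their part in the Lynx1 values was not tested. The 5 genes listed for parvalbumin interneurons, a cell class known to express Lynx1 in cortex, summed to an abundance of 97.4 to 105 in AS males and 112 to 125 in WT males, without overlap. In females the same sum was 104 to 111 in AS and 99.2 to 114 in WT, which overlap. Pvalb itself lay between 5.02 and 5.41 in AS males and between 5.38 and 5.60 in WT males (difference -0.26 ± 0.11 SE, limma adjusted p = 0.763). Of the 5 genes, 4 were lower and 1 higher in AS males, and 2 were lower and 3 higher in AS females. Over both sexes all 5 were lower. At an unadjusted p below 0.05 (limma) there were 3 of the 5 in males, 0 in females and 1 over both sexes. The shares of all genes tested were 6.42%, 3.16% and 5.35% in the same order. None of the 5 passed adjustment. Over all genes tested, 47.6% were lower in AS males, 48.4% in AS females and 47.3% in AS over both sexes. The 7 general interneuron markers separated in females instead, at 559 to 626 in AS and 642 to 813 in WT. In males they overlapped, at 549 to 664 in AS and 549 to 724 in WT. All 7 were lower in AS females, and 5 were lower and 2 higher in AS males. Over both sexes all 7 were lower, 2 of them at an unadjusted p below 0.05 (limma), and none passed adjustment. The 5 endothelial markers summed to 74.8 to 93.0 in AS males and 93.7 to 116 in WT males. That list contains the family members Ly6c1 and Ly6a, and its other 3 genes, Cldn5, Flt1 and Pecam1, summed to 21.7 to 30.3 in AS males and 22.0 to 36.9 in WT males, which overlap. Of the 14 lists with a value, 12 overlapped between genotypes in females, 1 was lower in AS and 1 higher. In males 12 overlapped and 2 were lower in AS. Among single genes tested, 4.02% in females and 5.18% in males had every AS library below every WT library. These shares count the lower direction only. A list sum is not a single gene, so nothing is read from the count of lists. A further list that separated in females held habenula and thalamus markers, at 20.8 to 22.3 in AS and 16.2 to 17.9 in WT.

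Ly6h, the other modulator of nicotinic receptors and the most abundant member, did not separate by genotype. Its level was 7.94, 7.90 and 7.75 in AS females, against 7.87, 7.65 and 8.04 in WT females. It was 8.22, 7.69 and 8.09 in AS males, against 8.07, 7.72 and 8.05 in WT males. The groups overlapped in both sexes, with a low library in each male group. AS minus WT was 0.03 ± 0.10 over both sexes, with a 95% interval that corresponds to a change of -12.4% to 19.2% (limma adjusted p = 0.988). None of the 8 members other than Lynx1 passed an adjusted p of 0.05 (limma, over all 13858 genes) in AS against WT in females, in males or over both sexes, and none had an unadjusted p below 0.05. The background was 0% called in each of these contrasts, with 438 genes (3.16%) in females, 890 (6.42%) in males and 741 (5.35%) over both sexes at an unadjusted p below 0.05.

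Chrna4 and Chrnb2 encode the subunits of the main high-affinity nicotinic receptor of the brain, and neither passed the test by genotype. Chrnb2, on chromosome 3 at 89746195 to 89764632 (GRCm38, minus strand), was the steadiest member. Its level was 4.12, 3.94 and 4.02 in AS females, against 3.99, 3.98 and 4.16 in WT females. It was 4.14, 3.99 and 4.19 in AS males, against 4.20, 4.08 and 4.08 in WT males. All 12 libraries thus lay within 3.94 to 4.20, and the difference over both sexes was -0.02 ± 0.06, with an interval of -9.26% to 7.89% (limma adjusted p = 0.989). Chrnb2 overlaps the RNA editing gene Adar on the opposite strand, and strand-aware counting is not stated, so reads of the pair may be mixed.

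Chrna4 had the widest scatter of the 9 genes, with a within-group SD of 0.327 against 0.091 for Chrnb2; it lies on chromosome 2 at 181018380 to 181043546 (minus strand). It was 3.13, 2.86 and 2.62 in AS females, against 2.35, 2.85 and 3.18 in WT females. It was 3.18, 2.88 and 2.72 in AS males, against 2.96, 3.59 and 2.96 in WT males. The lowest and the highest values were both in WT libraries, female replicate 1 and male replicate 2. The difference was 0.07 ± 0.23 in females and -0.24 ± 0.23 in males, and the interval over both sexes runs from -26.5% to 21.0% (limma adjusted p = 0.978). The female value was -0.15 ± 0.22 without WT female replicate 1.

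Chrna7, whose product forms receptors of alpha7 subunits alone and conducts calcium, lies on chromosome 7 at 63098692 to 63212569 (GRCm38, minus strand), 3787156 bases from Ube3a. It was 4.01, 3.89 and 3.91 in AS females, against 4.20, 3.86 and 4.21 in WT females. It was 3.91, 3.85 and 4.09 in AS males, against 3.98, 3.35 and 4.03 in WT males. WT male replicate 2 stood apart at the low end, and the other 11 libraries lay between 3.85 and 4.21. That library was also lowest in the 5 ventral hippocampus markers, which summed to an abundance of 52.8 there and 84.5 to 197 in the other 11. Among WT males it was highest in oligodendrocyte markers, at 2380 against 1380 and 1290. The part of these markers in its Lynx1, Chrna7, Chrna4 and Chrm3 values was not tested. The difference was -0.16 ± 0.16 in females and 0.16 ± 0.16 in males (limma adjusted p = 1.00 and 0.888), and 0.00 ± 0.11 over both sexes. Without WT male replicate 2 the male value was -0.06 ± 0.12.

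The muscarinic receptor genes covered a wide range of levels. Chrm1 encodes the Gq-coupled M1 receptor that predominates on hippocampal pyramidal cells, and lies on chromosome 19 at 8663789 to 8683587 (plus strand). It was 5.77, 5.54 and 5.85 in AS females, against 5.71, 5.53 and 5.51 in WT females. It was 5.67, 5.38 and 5.75 in AS males, against 5.67, 5.46 and 5.53 in WT males. The highest values were AS ones in both sexes, yet the groups overlapped. The difference over both sexes was 0.09 ± 0.08, with an interval of -5.11% to 20.1% (limma adjusted p = 0.951).

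Chrm2 encodes the Gi-coupled M2 receptor, found on cholinergic terminals and on interneurons, and was the least abundant member; it lies on chromosome 6 at 36388084 to 36528414 (plus strand). It was 1.95, 1.59 and 1.69 in AS females, against 1.56, 1.89 and 1.65 in WT females. It was 1.51, 1.84 and 1.49 in AS males, against 1.75, 1.79 and 1.93 in WT males. In males 2 AS libraries were below all 3 WT libraries and the other AS library lay among them. The male difference was -0.21 ± 0.15 (limma adjusted p = 0.834), and the difference over both sexes was -0.08 ± 0.11 with an interval of -20.0% to 11.3%.

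Chrm3, which encodes the Gq-coupled M3 receptor and lies on chromosome 13 at 9875486 to 10360847 (minus strand), was 3.77, 3.92 and 4.12 in AS females, against 3.98, 3.76 and 3.71 in WT females. It was 3.75, 3.75 and 3.74 in AS males, against 3.76, 4.12 and 3.80 in WT males. The AS males lay just below the WT males without overlap, as 718 of the 13858 genes did in males (5.18%), and the gap to the lowest WT library was small. The male difference was -0.15 ± 0.12 (limma adjusted p = 0.849). In females the difference was 0.12 ± 0.12, and over both sexes it was -0.01 ± 0.08 with an interval of -12.5% to 12.1%. The highest WT male value came from replicate 2, the library that was also highest in Chrna4 and lowest in Chrna7, and without it the male difference was -0.03 ± 0.11.

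Ache, on chromosome 5 at 137287519 to 137294466 (plus strand), was 4.55, 4.14 and 4.53 in AS females, against 4.41, 4.36 and 4.55 in WT females. It was 4.50, 4.38 and 4.69 in AS males, against 4.69, 4.40 and 4.83 in WT males. AS female replicate 2 was the lowest of the 12 libraries, and the genotypes overlapped in both sexes. The difference over both sexes was -0.07 ± 0.10, with an interval of -17.8% to 9.90% (limma adjusted p = 0.976).

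**Figure D2:**
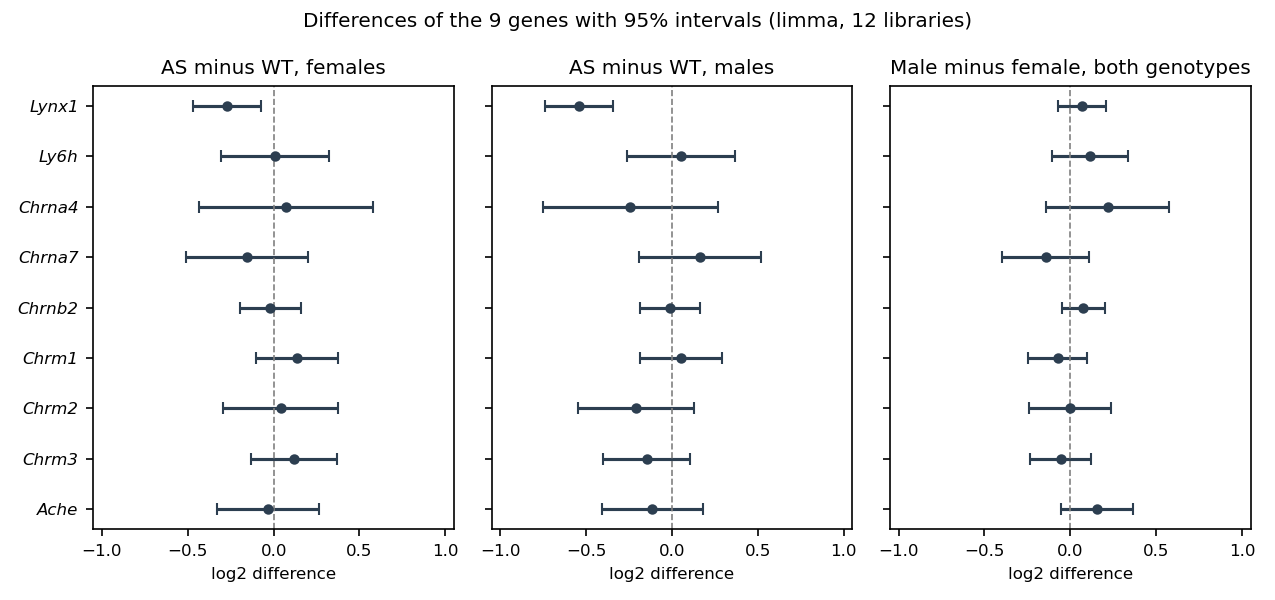
Log2 differences of the 9 genes (rows) with 95% intervals from limma over 12 libraries, for AS minus WT among females (left) and among males (middle), and for male minus female over both genotypes (right; x axes, log2 units; dashed line at 0). Lynx1 was chosen for its AS values, so its intervals in the left and middle panels are a description; every interval of the other 8 genes spans 0.

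By level per length the members ranked Ly6h (mean abundance 242), Lynx1 (102), Chrm1 (48.2), Ache (21.8), Chrnb2 (15.9), Chrna7 (14.5), Chrm3 (13.5), Chrna4 (6.84) and Chrm2 (2.32). Neighbours in this order kept it in 12 of 12 libraries with 2 exceptions. Chrnb2 was above Chrna7 in 10 libraries, and Chrna7 was above Chrm3 in 9. The mean gaps of those pairs, 0.13 ± 0.22 and 0.09 ± 0.33 (log2, SD over 12 libraries), were smaller than their spread. The modulator transcripts Ly6h and Lynx1 were thus each at a higher per-length level than that of every receptor gene among the members, in every library.

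Neither sex nor its interaction with genotype gave a call among the other 8 members. Male minus female differences over both genotypes ran from -0.14 for Chrna7 to 0.22 for Chrna4, and the smallest limma adjusted p, 0.782, was that of Ache (0.16 ± 0.10). For the interaction, 0 of 13858 genes passed (0%) and 522 (3.77%) had an unadjusted p below 0.05. The largest interaction values among these 8 genes were 0.32 ± 0.23 for Chrna7 and -0.31 ± 0.33 for Chrna4, followed by -0.27 ± 0.16 for Chrm3 (limma adjusted p = 0.987 for each). Without WT male replicate 2 the interaction was 0.10 ± 0.15 for Chrna7, -0.15 ± 0.15 for Chrm3 and -0.11 ± 0.31 for Chrna4.

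The wider pathway was described with 6 lists of 91 genes, of which 46 were tested, 37 of them not members. None of the 37 passed an adjusted p of 0.05 in any of the 5 contrasts (limma). At an unadjusted p below 0.05 there were 0 of 37 in females, 3 in males, 2 over both sexes, 3 for sex and 1 for the interaction, against 3.16%, 6.42%, 5.35%, 6.91% and 3.77% of all genes in the same order. Over both sexes 20 of the 37 were higher and 17 lower in AS, with a median difference of 0.007 against 0.005 over all genes tested.

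Of 16 nicotinic subunit genes listed, 4 were tested, and their median difference over both sexes was -0.006. All 5 muscarinic receptor genes were tested; Chrm4, whose product is Gi-coupled, had a mean abundance of 9.63 and a difference of 0.06 ± 0.13. Among 5 of 9 genes for acetylcholine synthesis, transport and breakdown, the choline transporter genes Slc44a1 and Slc44a2 differed by 0.06 ± 0.09 and 0.06 ± 0.07. Prima1, which encodes the membrane anchor of brain acetylcholinesterase, had the largest difference of that list at 0.34 ± 0.18 and a low mean abundance of 1.33 (limma adjusted p = 0.914); it is named after its value was seen. The nicotinic receptor chaperones were represented by 5 of 6 genes. Of these, Tmem35a, whose product is needed to assemble alpha7 receptors, differed by -0.09 ± 0.08, Rer1 by 0.01 ± 0.04 and Vsnl1 by -0.06 ± 0.11.

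Of 38 Ly6/uPAR family genes listed, 11 were tested, 1 of them Lynx1. Of the 10 others, 6 were lower and 4 higher in AS over both sexes, with a median difference of -0.12, against 47.3% lower and a median of 0.005 over all genes. Ly6c1, expressed by brain endothelium, had a mean of 5.21 ± 0.11 in AS females and 5.43 ± 0.20 in WT females, and 5.05 ± 0.10 in AS males and 5.42 ± 0.17 in WT males (log2, SD, n = 3 each). Its difference over both sexes was -0.30 ± 0.08, with an unadjusted p of 0.00343 that did not survive adjustment (limma adjusted p = 0.661). Ly6a, a second endothelial member, differed by -0.20 ± 0.10 over both sexes. The other 3 endothelial markers differed over both sexes by 0.10 ± 0.19 (Cldn5), -0.09 ± 0.14 (Flt1) and -0.12 ± 0.11 (Pecam1). Over both sexes Cldn5 was thus higher in AS, and Flt1 and Pecam1 were lower. In males all 5 endothelial markers were lower in AS, with Cldn5 at -0.06 ± 0.26, Flt1 at -0.23 ± 0.20 and Pecam1 at -0.22 ± 0.15. In females 3 of the 5 were lower and 2 higher. Among all genes tested, 47.6% were lower in AS males and 48.4% in AS females. The part of endothelial cells in the Ly6c1 and Ly6a values was not tested. Lypd1, a paralogue that also binds nicotinic receptors, differed by 0.15 ± 0.18. Reads of the near-identical members of this family may be split between genes by the counting.

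Of 17 muscarinic signalling genes listed, 16 were tested. The abundant G protein gene Gnao1 differed by -0.02 ± 0.05 over both sexes. Kcnq5, which encodes a subunit of the M-current channels that muscarinic receptors inhibit, differed by -0.15 ± 0.06, with an unadjusted p of 0.0245 and a limma adjusted p of 0.893. In males, Gnai1 differed by 0.19 ± 0.08 and the phospholipase gene Plcb4 by -0.34 ± 0.13, with a limma adjusted p of 0.763 for each. In females their values were -0.01 ± 0.08 and -0.05 ± 0.13.

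**Figure D3:**
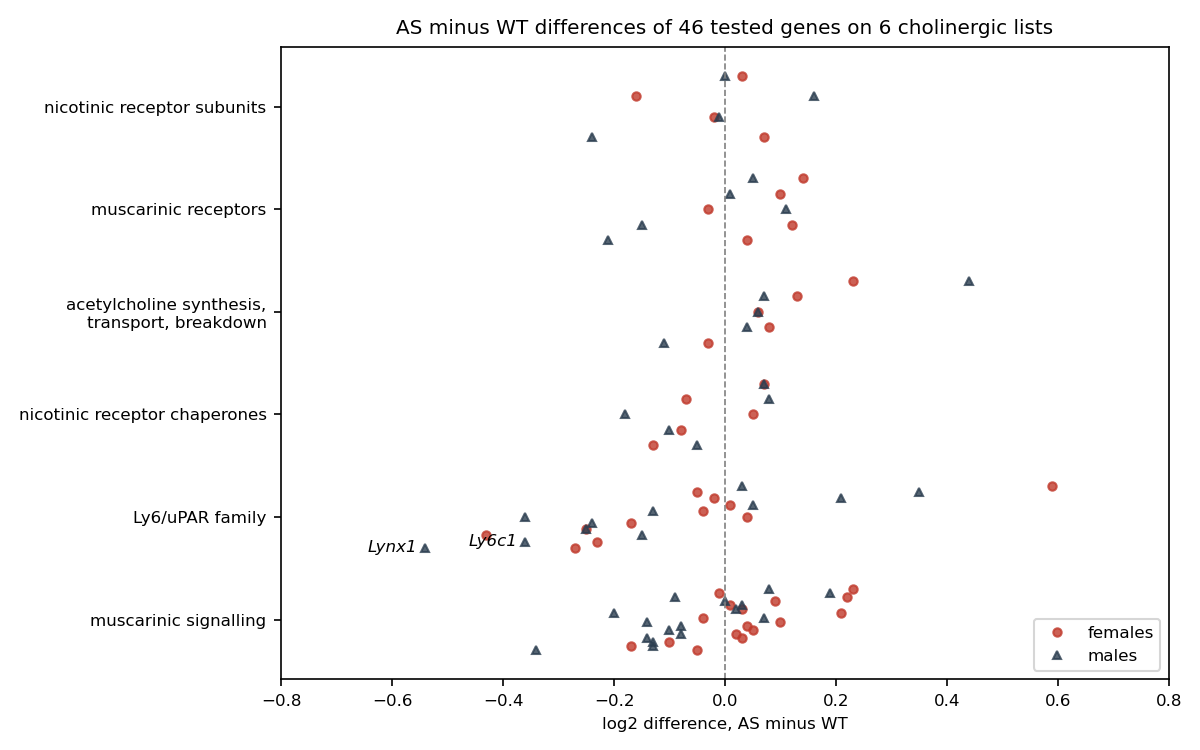
AS minus WT log2 differences (x axis) of the 46 tested genes on 6 cholinergic lists (rows), with circles for females and triangles for males; the 9 members are included. Points scatter on both sides of 0 in every list. The lowest value of all is Lynx1 in males, at -0.54, and Lynx1 was chosen for its AS values. The highest is Cd59b in females, at 0.59 ± 0.35 (SE).

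Lynx1 lies on chromosome 15 at 74747852 to 74753046 (GRCm38, minus strand), in a cluster of Ly6 genes, and overlaps no other annotated gene. Ly6h lies 798221 bases away on the same strand, at 75551268 to 75567255. Among the 5 tested genes on each side of Lynx1, none passed the test in AS against WT. Nearest, 23212 bases away, was Them6 at -0.42 ± 0.13 in males (limma adjusted p = 0.748) and 0.17 ± 0.13 in females. Arc, an activity-regulated gene, was at -0.47 ± 0.30 in males and 0.19 ± 0.30 in females. Ly6e differed by -0.08 ± 0.08 over both sexes, and Jrk by 0.04 ± 0.09. The other 5, given over both sexes, were Gm15387 at 0.14 ± 0.07, Adgrb1 at -0.04 ± 0.07, Zfp41 at 0.17 ± 0.09 and the family members Ly6a and Ly6c1 described with their list. Slurp2, which lies 1158 bases from Lynx1 on the same strand, was not analysed here. Of the other members, all but Chrna4 and Ly6h overlap another annotated gene, which besides Adar are noncoding RNAs, a pseudogene and loci of unknown status.

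**Figure D4:**
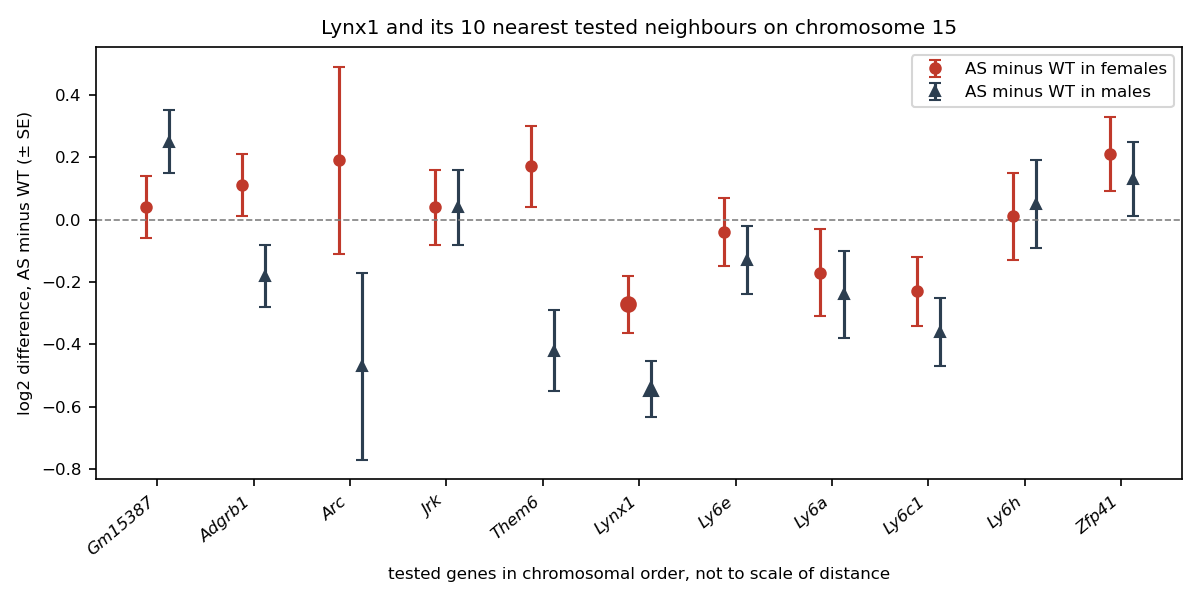
AS minus WT log2 difference ± SE (y axis) of Lynx1 and the 5 nearest tested genes on each side (x axis, chromosomal order, not to scale), with circles for females and triangles for males. Lynx1, drawn larger, is at -0.27 in females and -0.54 in males, and Ly6c1 at -0.23 and -0.36; Them6 and Arc have opposite signs in the sexes.

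Likeness to Lynx1 was measured as Pearson r over the 12 libraries among the 9839 genes with a mean abundance of at least 5 and a symbol that is not of the predicted-gene or clone type. The values share libraries and the genotype difference for which Lynx1 was chosen, so they are a description. Highest were Kansl1, a subunit of a histone acetyltransferase complex, at 0.94, the histone gene Hist3h2ba at 0.91, Paxip1 at 0.89, Aifm3 at 0.87 and Rab33a at 0.85. Kansl1 lay between 4.47 and 4.60 in AS and between 4.65 and 4.70 in WT. Lowest were Cep120 at -0.92, the endocytosis gene Sh3gl3 at -0.91, the microRNA-processing gene Dicer1 and Itfg1 at -0.90 each, and Cpd at -0.89. With Spearman's rho, Kansl1, Hist3h2ba and Paxip1 were again among the 5 highest and Sh3gl3, Dicer1 and Itfg1 among the 5 lowest.

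With the 4 group means removed, which takes out genotype and sex, other genes were most like Lynx1. Lynx1 spread most within AS males (SD 0.19, against 0.09 in AS females, 0.09 in WT females and 0.04 in WT males). That group thus weighs most in these values, and no check without its libraries was made. Highest were Nars2, Kctd17 and Mrps24 at 0.94 and Larp6 and Bop1 at 0.93. Lowest were Scaper at -0.95, Ireb2 and Zfp157 at -0.94, and Relch and Zfp62 at -0.93. For the other 8 members, r with Lynx1 over the values ran from -0.17 for Chrna7 to 0.41 for Ache. Over deviations from the group means it ran from -0.23 for Chrm2 to 0.67 for Chrm1, whose r over the values was -0.05. The values further above are extremes of 9839 genes, so the members are not set against them.

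Among the 8 members other than Lynx1, 28 pairs were compared over the 12 libraries, and none passed after Benjamini-Hochberg adjustment. Highest was Chrnb2 with Ache, at Pearson r = 0.73 (permutation p = 0.00675, adjusted 0.153) and Spearman rho = 0.76 (permutation p = 0.00603, adjusted 0.132). It was 0.56 without the 2 libraries farthest from the median of Chrnb2, and 0.67 over deviations from the group means. Ly6h with Chrnb2 followed at r = 0.72 (permutation p = 0.0109, adjusted 0.153) and rho = 0.73 (permutation p = 0.00944, adjusted 0.132). The correlation of Chrna4 with Chrna7, r = -0.61, became 0.35 without the 2 farthest libraries, so it rests on those.

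The promoters of Chrnb2 and Ache, the pair with the highest r, are printed to show the regions around their RefSeq starts. Each runs from 250 bases before to 50 bases after the start in RefSeq (GRCm38.p6), in transcript direction, and 6 of the 9 members had an entry. Capitals mark 2 motifs searched on both strands, the GC box GGGCGG and the E-box CACGTG, with overlapping GC boxes counted separately. Chrnb2 is at chr3:89764583-89764882 (minus strand) and Ache at chr5:137288004-137288303 (plus strand). The Chrnb2 window spans the gene start in GENCODE, at 89764632. The Ache window lies inside the GENCODE gene, which starts at 137287519, so the windows are not placed alike.
Chrnb2: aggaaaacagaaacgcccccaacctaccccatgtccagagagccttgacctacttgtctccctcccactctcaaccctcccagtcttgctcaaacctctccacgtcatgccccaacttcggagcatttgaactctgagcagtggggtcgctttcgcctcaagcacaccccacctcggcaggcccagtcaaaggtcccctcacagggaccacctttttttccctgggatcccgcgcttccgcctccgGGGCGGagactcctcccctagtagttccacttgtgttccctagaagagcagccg
Ache: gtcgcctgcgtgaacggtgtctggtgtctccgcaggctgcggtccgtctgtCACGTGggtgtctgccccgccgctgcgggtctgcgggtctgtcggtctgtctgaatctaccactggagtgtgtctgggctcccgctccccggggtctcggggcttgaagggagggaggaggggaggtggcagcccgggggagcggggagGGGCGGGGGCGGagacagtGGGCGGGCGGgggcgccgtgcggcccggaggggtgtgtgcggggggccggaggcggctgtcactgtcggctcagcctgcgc
The Chrnb2 window holds 12 CpG sites, 59.0% G or C and 1 GC box, and the Ache window holds 30 CpG sites, 74.0% G or C, 4 GC boxes and 1 E-box. Over the 32851 promoters of the table the median is 7 CpG sites and 52.7% G or C, and 35.7% hold GGGCGG and 7.15% hold CACGTG. The CCAAT box, searched in the same way, is in neither window and in 37.4% of all promoters. These matches describe letters, not sites in use.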

How the data were processed

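Polyadenylated RNA of 12 libraries was quantified by the authors; per the submitters' processing notes, Trimmomatic, Bowtie2, RSEM and the GRCm38 (mm10) genome were used, with no versions given. The deposited table holds values taken as natural logs (ln) of abundance plus 1. Its unit (TPM or FPKM), log base, added constant and strand setting are not given in the sources used here. All values between 2 and 5 occur in every column (100%), as quantile normalization leaves them, so a library's values depend on the ranks of all its genes. Read as base 2, every log2 difference is 0.693 times as large. Totals per library were 547558 to 587587; read depth is unknown, so no counting interval is given.

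Values were divided by ln 2 to give log2(abundance + 1), with the added constant of 1. Of 13951 genes, 93 with a mean abundance below 1 were dropped. A limma 3.58.1 linear model (R 4.3.3) with trended variances fitted 4 group means to 12 libraries (8 residual degrees of freedom), with Benjamini-Hochberg adjustment over 13858 genes and a threshold of 0.05, and was tested on simulated data. Tables were made with Python 3.11.15, NumPy 2.4.6 and pandas 2.3.3. Fold differences are on the log2(abundance + 1) scale and understate those of low genes. Replicates are separate mice numbered in accession order, and pair nothing.

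The members and lists were chosen with earlier results of these data known. Named were all members; listed genes with an unadjusted p below 0.05 in AS against WT and the 3 of each list with the highest level; the 5 genes most and least like Lynx1; and the 5 nearest tested genes on each side. The value of 1 gene named by this rule is not reported here. Positions are from GENCODE (GRCm38). Alternatives were an added constant of 0.5, no filter, a mean abundance of at least 5, logs read as base 2, the compared groups alone, library weights, leaving out each library, and leaving out the 4 libraries high in choroid plexus genes. No protein sequence is shown.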

Additional observations from a re-analysis of the deposited data

How the results depend on the processing

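Of 20 alternatives, none called any of the 8 members other than Lynx1 in any contrast (731 fits, limma), and none turned the sign of the Lynx1 difference. Leaving out 1 library at a time gave Lynx1 -0.317 to -0.226 in females and -0.637 to -0.443 in males, and read as base 2 the values were -0.19 and -0.38. Over all genes, leaving out 1 library called 0 to 1 genes in females (main value 0), 0 to 1 in males (0), 0 to 2 over both sexes (0), 0 to 1 for the interaction (0) and 4 to 8 for sex (5). The count of 8 for sex came without WT female replicate 1, the library with Xist at the male level. A count of 1 in females came without AS female replicate 1, WT female replicate 1 or WT female replicate 3, and the counts of 1 in males and 2 over both sexes came without WT male replicate 2. Without WT female replicate 1 the count over both sexes was 1, and a count of 1 for the interaction came without WT female replicate 1, WT female replicate 3 or WT male replicate 2. Without the 4 libraries high in choroid plexus genes the counts were 5 in females, 1 in males, 2 over both sexes, 12 for sex and 2 for the interaction, and with a mean abundance of at least 5 the count for sex was 3; the cause was not tested.

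Differences of members that passed no test changed sign under some alternatives, 62 times in all. Not all of these were near 0. The main value was -0.31 ± 0.33 for the Chrna4 interaction and 0.16 ± 0.16 for Chrna7 in males (SE). With 1 library left out, the log2 ranges in females were Ly6h -0.091 to 0.104, Chrna4 -0.151 to 0.267, Chrnb2 -0.067 to 0.038, Chrm2 -0.062 to 0.137 and Ache -0.104 to 0.102. In males they were Ly6h -0.064 to 0.206, Chrna7 -0.057 to 0.285, Chrnb2 -0.051 to 0.046 and Chrm1 -0.022 to 0.162. Over both sexes they were Ly6h -0.027 to 0.108, Chrna4 -0.196 to 0.02, Chrna7 -0.106 to 0.065, Chrnb2 -0.039 to 0.014 and Chrm3 -0.059 to 0.043. For male minus female the range was Chrm2 -0.058 to 0.05. For the interaction they were Ly6h -0.074 to 0.195, Chrnb2 -0.049 to 0.066, Chrm1 -0.172 to 0.026 and Ache -0.217 to 0.012. Library weights gave Chrnb2 0.014 in females, 0.025 in males and 0.020 over both sexes, and Ache 0.026 in females. Without the 4 libraries, Ly6h was -0.196 and Chrna4 -0.309 in females, Chrnb2 0.046 in males, Chrna7 -0.018 and Chrm3 0.041 over both sexes, and Chrna4 0.091 for the interaction. The lone WT female library left there was assumed to vary like the other groups. Among the 20 were fits of the compared groups alone, which bear on the single-sex contrasts only. No paired analysis was possible because the labels give the groups no shared replicate numbers.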
